A study of Mus musculus with 6 samples.

Results

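Dense granules are the small secretory organelles of platelets that hold serotonin, nucleotides and calcium. The 10 genes described here take up serotonin, load it into the granule, build the granule or bring about its release. They were chosen by name for these roles, with earlier results of these data known. Their names are Slc6a4, Slc18a2, Slc35d3, Rab27a, Rab27b, Rab32, Rab38, Hps1, Hps6 and Lyst. They are 10 of 46603 genes listed in each count table, and all 10 were among the 15069 genes tested. Slc6a4, Slc18a2, Slc35d3, Rab27b and Rab38 are called restricted here, since among marrow cells they are known mainly from megakaryocytes, platelets, basophils or mast cells. The others, Rab27a, Rab32, Hps1, Hps6 and Lyst, are expressed in many cell types and are called broad.

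RNA was sequenced from the marrow of 6 mice, 3 of them NM1 KO and 3 NM1 WT, on the C57/Bl6 background, all 8 months old, with 1 library for each mouse. NM1 (nuclear myosin 1) is a nuclear form of the motor protein encoded by Myo1c. How the NM1 KO allele was made is not given in the sources used here, and no agent was given to either group as far as the labels state. The marrow of femurs and tibiae was collected whole by centrifugation, so every blood lineage and the cells of the marrow stroma contribute to each value. In such bulk samples a larger number of cells of a type and more RNA per cell cannot be told apart.

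Platelets do not make serotonin but take it up from plasma through the transporter encoded by Slc6a4. The vesicular monoamine transporter encoded by Slc18a2 then moves it into dense granules in exchange for protons. Dense granules belong to the lysosome-related organelles, together with the pigment granules of melanocytes and the lytic granules of killer cells. Their assembly needs a set of sorting complexes (AP-3, BLOC-1, BLOC-2 and BLOC-3) and the small GTPases Rab32 and Rab38, and their release needs Rab27. Inherited loss of these genes gives the Hermansky-Pudlak, Griscelli and Chediak-Higashi groups of disorders, in several of which platelets lack dense granules.

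Library totals ran from 15145052 to 22618802 counts, with all NM1 KO libraries the deeper ones. Levels are in CPM, the counts scaled to a common library size with TMM factors, and 1 CPM stood for 14.7 to 22.98 counts. NM1 WT 2 lay apart from the other 5 libraries on the second principal component, at -61.8 against 4.45 to 20.6. Y-linked transcripts were present in NM1 KO 1, NM1 KO 2 and NM1 WT 2 and at 0 in the others, and the labels give no sex. Xist was at 0.61, 0.28 and 1.16 CPM in the libraries with Y-linked transcripts and at 268.7 to 299.7 CPM in the others. Read as sex, this is 2 males and 1 female in NM1 KO against 1 male and 2 females in NM1 WT. The genotypes are thus not balanced for it. The 20 megakaryocyte and platelet markers were all detected, and 20 of 20 had a positive log2 fold change of NM1 KO over NM1 WT. Their summed level was 3948, 6843 and 3218 CPM in NM1 KO 1 to 3, compared with 1720, 1922 and 2016 in NM1 WT 1 to 3, and 15 of 20 rose. NM1 KO 2 thus held the highest level of platelet transcripts. Myo1c was at 73.8, 59.1 and 59.7 CPM in NM1 KO and at 89.8, 114.5 and 101.8 CPM in NM1 WT, with a log2 fold change of -0.67 (SE 0.14) and adjusted p = 0.0516 by edgeR's quasi-likelihood test. All NM1 KO values were lower, without reaching the threshold of 0.05, and a gene-level count does not separate the nuclear form from the other forms of Myo1c.

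Of the 10 genes, 2 rose in NM1 KO marrow: Slc6a4, the serotonin transporter, by 2.04-fold and Rab27b, the secretory GTPase, by 3.14-fold. None fell, and the other 8 did not pass the threshold. Over all tested genes, 0.591% were called higher and 0.186% lower by edgeR's quasi-likelihood test (adjusted p under 0.05). In 2 of the 10 genes, again Slc6a4 and Rab27b, all NM1 KO libraries lay above all NM1 WT libraries, as did 10.8% of all tested genes. In 0 of the 10 all NM1 KO libraries lay below, against 9.75% of all tested genes. The restricted genes had a positive log2 fold change in 5 of 5 cases, with a median of 1.03. The broad genes had a positive one in 1 of 5, with a median of -0.23, beside a median of 0.0019 and 50.2% positive over all tested genes.

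**Figure D1:**
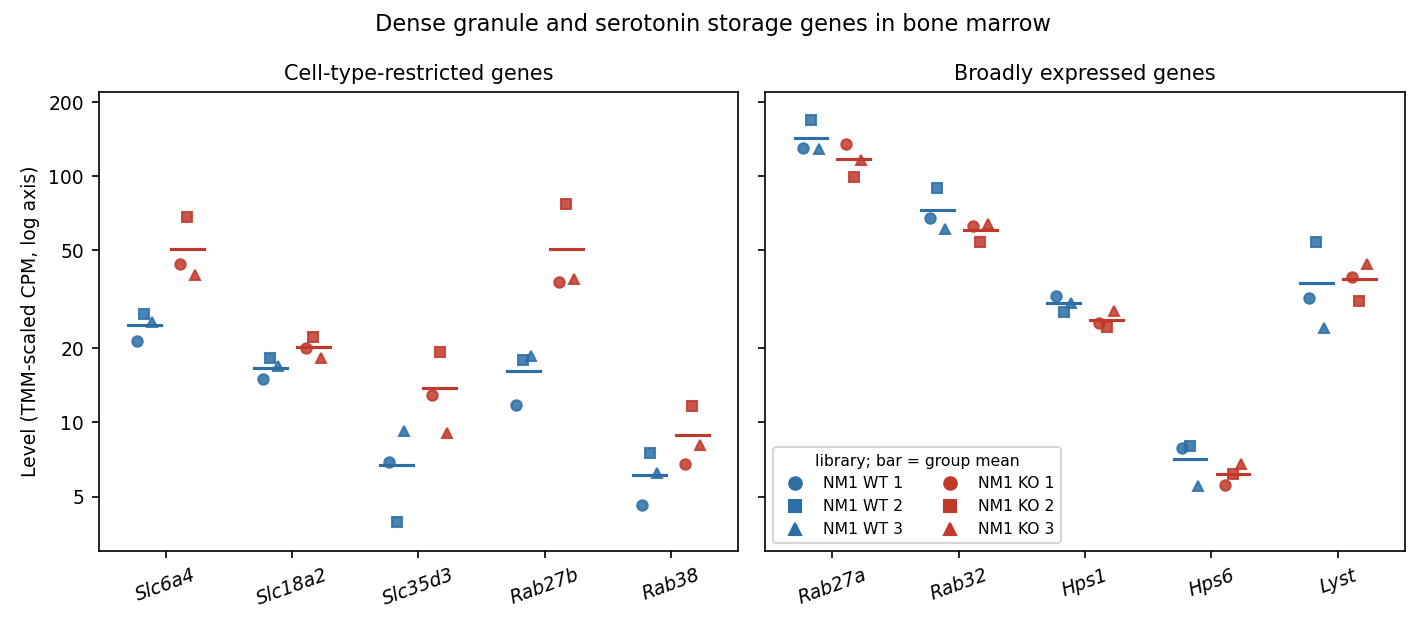
Level of each of the 10 genes in CPM on a log axis, 1 point for each of the 6 libraries, by genotype, with the group mean as a line. Slc6a4 and Rab27b are the genes with no overlap between NM1 KO and NM1 WT, and NM1 KO 2 is the highest NM1 KO library for every restricted gene.

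The upstream sequences of the 3 transporter genes of the restricted group are shown because these genes serve 1 organelle, and Slc6a4 passed the threshold while the others did not. Each is the run of 250 bases before the RefSeq start site in GRCm38.p6, on the strand of the gene. They lie at chr11:76998347-76998596 (plus strand) for Slc6a4, chr19:59260628-59260877 (plus strand) for Slc18a2 and chr10:19851460-19851709 (minus strand) for Slc35d3. Capitals mark matches to the letter strings named below, which are some forms of the motifs of factors known to act in megakaryocytes.
Slc6a4: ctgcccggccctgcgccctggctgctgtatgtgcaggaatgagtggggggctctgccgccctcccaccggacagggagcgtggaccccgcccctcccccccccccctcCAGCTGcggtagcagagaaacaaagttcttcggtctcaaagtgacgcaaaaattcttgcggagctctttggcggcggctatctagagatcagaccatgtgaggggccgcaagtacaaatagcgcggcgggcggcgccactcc
Slc18a2: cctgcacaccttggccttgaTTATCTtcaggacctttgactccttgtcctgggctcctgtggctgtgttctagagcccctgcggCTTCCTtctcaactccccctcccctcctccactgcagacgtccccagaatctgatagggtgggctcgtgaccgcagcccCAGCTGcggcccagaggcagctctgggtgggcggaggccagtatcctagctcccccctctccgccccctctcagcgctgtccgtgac
Slc35d3: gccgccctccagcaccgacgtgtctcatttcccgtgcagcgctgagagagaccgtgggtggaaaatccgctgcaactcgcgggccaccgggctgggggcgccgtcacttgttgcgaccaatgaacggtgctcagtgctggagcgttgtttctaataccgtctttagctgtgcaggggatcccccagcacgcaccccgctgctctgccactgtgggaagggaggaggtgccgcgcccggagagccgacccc
The letters were searched on both strands, in 32851 mouse promoter windows of the same length as well. The GATA motifs were AGATAA, present in 9.99% of all windows, with a variant, TGATAA, in 7.94%. The ETS motifs were AGGAAG, present in 29.5%, with a variant, CCGGAA, in 12%. The motif of NF-E2 and AP-1 was TGANTCA, present in 6.75%, and the E-box was CAGCTG, present in 13%. Other forms of these motifs were not searched, among them the GATA forms AGATAG and TGATAG. The Slc6a4 window holds AGATAG on the opposite strand (ctatct) and the Slc18a2 window holds TGATAG, both left in small letters. Of the strings searched, the Slc6a4 window held 1 match, CAGCTG at 142 to 137 bases before the start. The Slc18a2 window held 3 that do not overlap, AGATAA at 230 to 225 and AGGAAG at 166 to 161, both on the opposite strand, and CAGCTG at 87 to 82. The Slc35d3 window held 0 of these letter strings. The Slc6a4 and Slc35d3 windows carried 18 and 22 CpG pairs and the Slc18a2 window 9, while their GC content was alike, at 64.8%, 65.6% and 64.0%. RefSeq windows were found for 8 of the 10 genes. These matches describe the letters only, and no factor's binding was measured.

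Slc6a4 (ENSMUSG00000020838, GRCm38 chromosome 11, 76998603 to 77032340, plus strand) carries serotonin across the plasma membrane. Its level was 44.0, 68.5 and 39.6 CPM in NM1 KO 1 to 3, compared with 21.5, 27.5 and 25.5 in NM1 WT 1 to 3. Every NM1 KO mouse lay above every NM1 WT mouse, and NM1 KO 2 stood highest. The means were 50.7 ± 15.6 and 24.8 ± 3.10 CPM (SD, n = 3 each), a log2 fold change of 1.03 (SE 0.21) with adjusted p = 0.0470 by edgeR's quasi-likelihood test. The value sat just under the threshold, and the call was lost without NM1 KO 1 (adjusted p = 0.0591), NM1 KO 2 (0.145), NM1 WT 1 (0.216) or NM1 WT 3 (0.118). It was also lost under RLE (0.0502) and upper-quartile scaling (0.0528), with the Y-linked state as a term (0.0821) and in limma-voom (0.0854), and was made in 9 of 17 alternatives. Without NM1 KO 2 the log2 fold change was 0.75.

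Slc18a2 (ENSMUSG00000025094, chromosome 19, 59260896 to 59296012, plus strand) carries out the next step, the loading of serotonin into the granule. It was at 20.1, 22.3 and 18.2 CPM in NM1 KO and at 15.0, 18.2 and 16.9 CPM in NM1 WT. The groups just overlapped, since NM1 KO 3 (18.19 CPM) lay a little below NM1 WT 2 (18.20 CPM). The log2 fold change was 0.27 (SE 0.17), with an interval of 1.96 SE either side from -0.07 to 0.62 and adjusted p = 0.466. The interval of Slc18a2 ends at 0.62, where that of Slc6a4 begins (0.62 to 1.44).

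The ratio of Slc6a4 to Slc18a2, each as CPM per kilobase of exon, compares RNA levels inside each library and not transport itself. It was 2.53, 3.54 and 2.51 in NM1 KO against 1.65, 1.74 and 1.74 in NM1 WT. All NM1 KO ratios were higher, and the exact permutation p of 0.1 is the smallest that 3 against 3 libraries can give. This pair of genes, and the pairs of Rab genes below, were chosen after their values were seen. Slc18a2 also serves histamine storage in basophils and mast cells. The summed level of their markers was 630 to 693 CPM in NM1 KO against 888 to 1083 CPM in NM1 WT, and Prss34, a basophil protease, fell by 0.99 (log2, SE 0.16, adjusted p = 0.0230 by edgeR). Of 8 tested markers of these cells 1 fell and 7 did not pass, the median log2 fold change was -0.70, and the mast cell genes Tpsab1 and Mcpt4 were at 0. Their part in the Slc18a2 level was not tested.

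None of the other tested genes of serotonin handling passed. Of 11 listed genes (synthesis, breakdown, receptors and low-affinity transporters) 5 were abundant enough to be tested, and 0 rose or fell. Tph1, which encodes the enzyme that starts serotonin synthesis outside the brain, had 2 counts in NM1 WT 1 and 0 in the other 5 libraries. Maoa, which breaks serotonin down, was at 3.35 ± 0.84 CPM in NM1 KO against 5.54 ± 2.54 CPM in NM1 WT (SD, n = 3), with adjusted p = 0.403 in the edgeR fit. Slc29a4, a low-affinity monoamine transporter, had a log2 fold change of -1.33 with SE 0.73 (adjusted p = 0.391) at 0.60 and 1.52 CPM, where few counts stood behind each value.

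Slc35d3 (ENSMUSG00000050473, chromosome 10, 19847916 to 19851459, minus strand) belongs to a family of nucleotide sugar transporters and is needed for normal dense granules in mouse platelets. It was at 12.97, 19.3 and 9.10 CPM in NM1 KO and at 6.92, 3.94 and 9.25 CPM in NM1 WT. NM1 KO 3 lay below NM1 WT 3, so the groups overlapped. The log2 fold change of 1.04 (SE 0.35) was as large as that of Slc6a4, yet its adjusted p was 0.170. The spread inside the groups was wider in proportion to the level, with an SD of 5.12 on a mean of 13.8 CPM and of 2.66 on a mean of 6.70 CPM. Within the 3 libraries holding Y-linked transcripts its mean log2 CPM was 2.00 higher in NM1 KO, and within the 3 lacking them 0.19 higher. Each of these contrasts has 1 library on one side, NM1 WT 2 in the first and NM1 KO 3 in the second. Neither was tested.

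**Figure D2:**
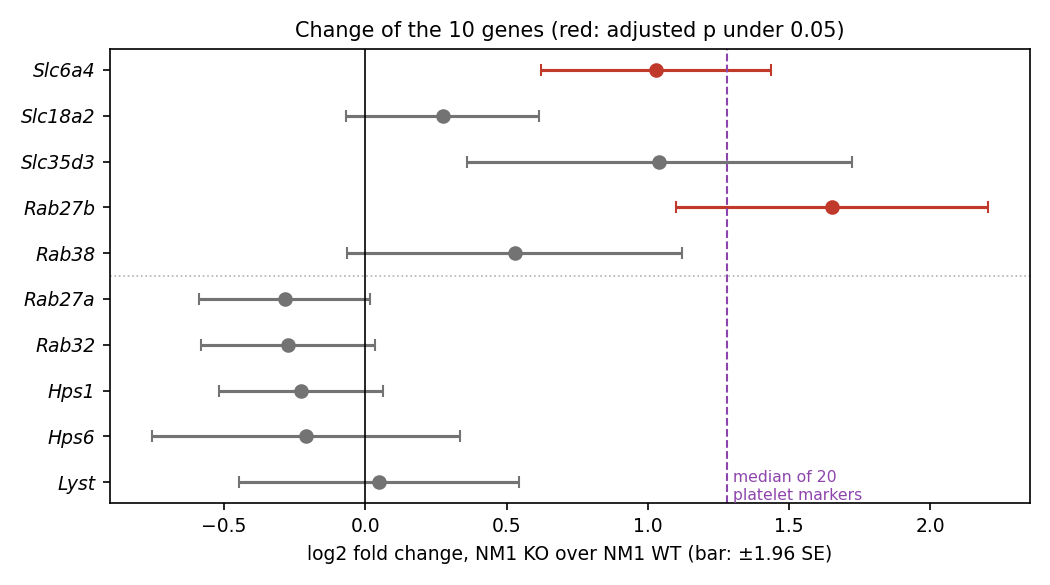
Log2 fold change of NM1 KO over NM1 WT for the 10 genes from the edgeR fit, with bars of 1.96 SE, restricted genes above the dotted line and broad genes below it. The dashed line is the median of the platelet markers (1.28), and genes past the threshold are red. Rab27b at 1.65 and Slc6a4 at 1.03 passed the threshold, Slc35d3 at 1.04 has a wider bar and did not, and 4 of the 5 broad genes lie below 0.

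Rab27b (ENSMUSG00000024511, chromosome 18, 69979131 to 70141605, minus strand) docks dense granules for release and is the main Rab27 of mouse platelets. It had the largest difference of the 10 genes. Its level was 37.3, 76.9 and 38.2 CPM in NM1 KO, compared with 11.8, 17.96 and 18.6 in NM1 WT. The lowest NM1 KO mouse was still above the highest NM1 WT mouse by a wide margin, and NM1 KO 2 was again the highest. The means were 50.8 ± 22.60 and 16.1 ± 3.76 CPM (SD, n = 3 each), a log2 fold change of 1.65 (SE 0.28) with adjusted p = 0.0286 by edgeR's quasi-likelihood test. The call was lost without NM1 WT 1 (adjusted p = 0.127) or NM1 WT 3 (0.0616), and in limma-voom (0.0677). The mean difference was 1.58 on the log2 scale within the libraries that held Y-linked transcripts and 1.36 within those that did not, with 1 library on one side of each contrast and no test.

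Rab27a (ENSMUSG00000032202, chromosome 9, 73044854 to 73097629, plus strand), the close relative that serves lytic granules and melanosomes, did not pass the threshold. It was at 135.2, 99.3 and 116.9 CPM in NM1 KO and at 130.4, 169.2 and 128.9 CPM in NM1 WT. The groups overlapped, and the highest value came from NM1 WT 2. The log2 fold change was -0.29 (SE 0.15, adjusted p = 0.378), with an interval from -0.59 to 0.02 that lies wholly below that of Rab27b (1.10 to 2.20). Per kilobase of exon the ratio of Rab27b to Rab27a was 0.1002, 0.281 and 0.119 in NM1 KO against 0.0329, 0.0386 and 0.0525 in NM1 WT. Every NM1 KO ratio was higher (exact permutation p = 0.1, the smallest possible), while Rab27a stayed the more abundant of the pair in all 6 libraries.

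Rab38 (ENSMUSG00000030559, chromosome 7, 88430273 to 88491572, plus strand) and Rab32 (ENSMUSG00000019832, chromosome 10, 10545002 to 10558265, minus strand) deliver cargo to lysosome-related organelles and can in part stand in for each other. Rab38 was at 6.79, 11.7 and 8.07 CPM in NM1 KO and at 4.62, 7.53 and 6.23 CPM in NM1 WT. NM1 KO 1 lay below NM1 WT 2, and the log2 fold change was 0.53 (SE 0.30, adjusted p = 0.411). Rab32 was at 62.7, 53.9 and 64.2 CPM in NM1 KO and at 67.9, 89.7 and 61.1 CPM in NM1 WT, with a log2 fold change of -0.27 with SE 0.16 (adjusted p = 0.410). Neither gene separated the genotypes alone. Their ratio per kilobase, Rab38 over Rab32, was 0.161, 0.322 and 0.186 in NM1 KO against 0.101, 0.125 and 0.151 in NM1 WT, with no overlap and the same exact permutation p of 0.1.

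Hps1 (ENSMUSG00000025188, chromosome 19, 42755105 to 42779978, minus strand) is a subunit of BLOC-3, which activates Rab32 and Rab38. It was at 25.2, 24.3 and 28.4 CPM in NM1 KO and at 32.7, 28.2 and 30.4 CPM in NM1 WT. The highest NM1 KO library just passed the lowest NM1 WT library, and the log2 fold change was -0.23 (SE 0.15, adjusted p = 0.476). Hps6 (ENSMUSG00000074811, chromosome 19, 46003508 to 46006173, plus strand), a BLOC-2 subunit, was the least abundant of the broad genes in CPM, at 5.57, 6.17 and 6.75 in NM1 KO against 7.87, 8.00 and 5.51 in NM1 WT. Its groups overlapped, with a log2 fold change of -0.21 with SE 0.28 (adjusted p = 0.760) and an interval from -0.76 to 0.34.

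Lyst (ENSMUSG00000019726, chromosome 13, 13590397 to 13778803, plus strand) encodes the large BEACH-domain protein that governs the size of lysosome-related organelles. It was at 39.0, 31.3 and 44.2 CPM in NM1 KO and at 32.1, 54.2 and 24.3 CPM in NM1 WT. The NM1 WT values held both the lowest and the highest of the 6 libraries, and NM1 WT 2 was the highest. The log2 fold change was 0.05 (SE 0.25, adjusted p = 0.951). Its mean log2 CPM in NM1 KO minus that in NM1 WT was -0.63 among libraries with Y-linked transcripts and 0.66 among those without. Each of these contrasts has 1 library on one side, NM1 WT 2 in the first, and neither was tested. Leaving out NM1 WT 2 gave a log2 fold change of 0.44.

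Levels can be ranked between genes only per length. In NM1 WT the order in mean CPM per kilobase of exon was Rab27a (36.8), Rab32 (31.2), Slc6a4 (5.48), Hps1 (5.20), Rab38 (3.89), Slc18a2 (3.20), Hps6 (2.67), Slc35d3 (2.55), Lyst (2.11) and Rab27b (1.51). The first pair stood far above the rest and overlapped each other. Hps1 (4.81 to 5.59) and Rab38 (2.93 to 4.78) did not overlap in their NM1 WT ranges. The other neighbours from Slc6a4 downwards did. In NM1 KO, Rab27b stood at rank 6 with 4.76 ± 2.12 (SD, n = 3) and Slc35d3 at rank 5 with 5.24 ± 1.95. Slc6a4 kept rank 3 at 11.2 ± 3.44, with no NM1 KO library (8.74 to 15.12) in the range of Rab38, the next gene (4.30 to 7.42).

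NM1 KO 2, the library with the most platelet marker RNA, was the highest of the NM1 KO libraries for all 5 restricted genes. For Rab27a, Rab32, Hps1 and Lyst it was the lowest. To set the 10 genes beside the platelet markers, the mean log2 CPM of the 20 markers was subtracted from each gene's log2 CPM in every library. That mean came to 6.85 ± 0.48 for NM1 KO and 5.59 ± 0.16 for NM1 WT (SD, n = 3). Markers on the lists of other cells moved as well. Those that rose were 5 of 6 stromal, 4 of 7 skeletal muscle, 1 of 7 endothelial (Esam) and 1 of 9 monocyte and macrophage markers (Mrc1). Of 8 eosinophil markers 6 fell. Over all tested genes 0.591% rose and 0.186% fell. Whether genes on these lists or among the platelet markers are expressed by more than a single cell type here was not tested. The monocyte and macrophage markers as a list pointed the other way from Mrc1, with 7 of 9 negative and a median log2 fold change of -0.34. Of 12 neutrophil markers 0 passed, and their median log2 fold change was -0.47. Their part in the levels of the 10 genes was not tested.

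On this relative scale Rab27b was the one gene with a positive difference. Its values were -1.45, -1.14 and -1.23 in NM1 KO against -1.84, -1.52 and -1.46 (log2 units) in NM1 WT, a difference of 0.33. The NM1 KO values lay above the NM1 WT values, though NM1 KO 1 and NM1 WT 3 nearly met. Slc6a4 was at -1.22, -1.30 and -1.18 in NM1 KO against -0.98, -0.90 and -1.01 in NM1 WT, a difference of -0.27. Each NM1 KO library was lower, so Slc6a4 differed between genotypes by less than the mean of the markers did. The markers themselves ran from 0.52 to 1.995 in log2 fold change. That range holds Rab27b (1.65), Slc6a4 (1.03), Slc35d3 (1.04) and Rab38 (0.53), while Slc18a2 (0.27) lies below it. Neither Rab27b nor Slc6a4 thus lay outside the spread of single platelet markers.

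Slc18a2 lagged furthest among the restricted genes, with a difference of -0.99 (-2.35, -2.92 and -2.30 against -1.49, -1.50 and -1.60). Rab38 differed by -0.74, also without overlap. Slc35d3 differed by -0.21 with overlapping groups (exact permutation p = 0.7), and its difference was 0.02 without NM1 WT 3. The broad genes Rab27a (-1.55), Rab32 (-1.52), Hps1 (-1.49) and Hps6 (-1.46) lay lower in every NM1 KO library, and Lyst (-1.15) overlapped (exact permutation p = 0.2). The subtracted marker mean was itself higher in every NM1 KO library, at 6.49 to 7.40 against 5.40 to 5.69. A gene at equal CPM in all 6 libraries would thus lie lower in NM1 KO on this scale. Lying lower here is therefore no result about these genes by themselves. On the CPM scale all 5 broad genes had overlapping groups. For the 8 genes without overlap the exact two-sided permutation p was 0.1, the smallest that 6 libraries allow. It was 0.125 after Benjamini-Hochberg adjustment over the 10 genes, so no call can be made. The share of all tested genes without overlap on this scale was not computed, so the count of 8 cannot be judged against it. With a shorter score of 5 markers Rab27b kept its place at 0.42, and Slc6a4, at -0.18, had overlapping groups.

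**Figure D3:**
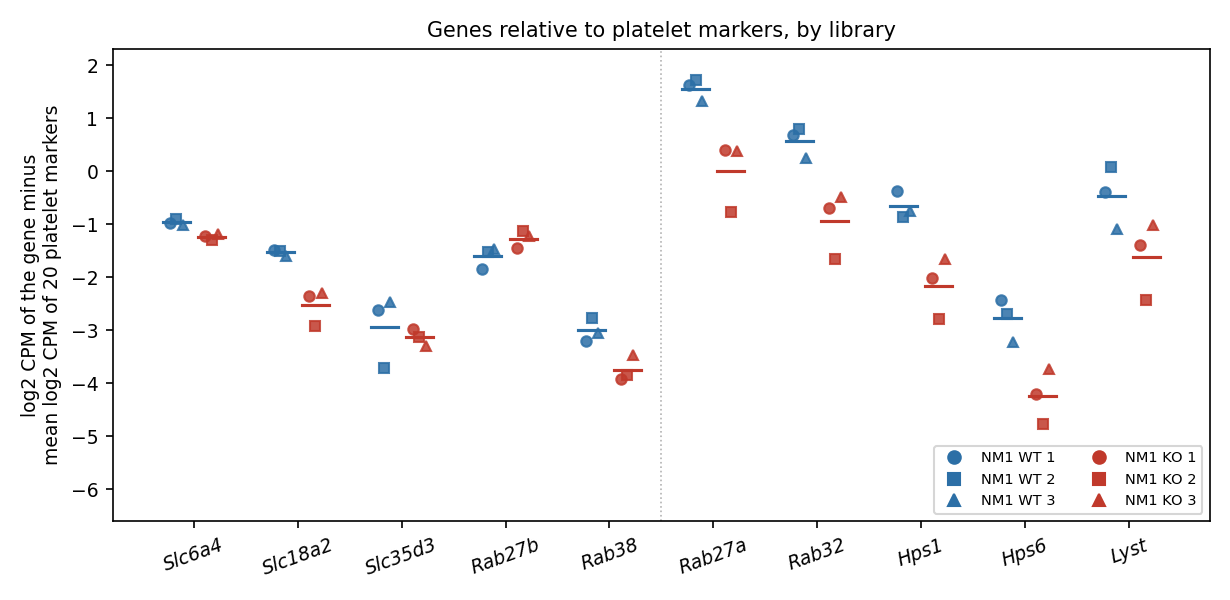
Log2 CPM of each of the 10 genes minus the mean log2 CPM of 20 platelet markers, 1 point per library by genotype. NM1 KO points lie above NM1 WT points for Rab27b and below them for 7 genes, and the groups overlap for Slc35d3 and Lyst. The marker mean itself was higher in every NM1 KO library, and the share of all tested genes apart on this scale was not computed.

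The machinery around the 10 genes was read from 11 lists of 115 genes, of which 105 were tested. None of the 105 rose or fell in the edgeR quasi-likelihood fit. The NM1 KO libraries lay above the NM1 WT libraries in 8 of them and below in 16, beside 10.8% and 9.75% of all tested genes, and the median log2 fold change was -0.06. Over all genes 2525 had an unadjusted p under 0.05 and 117 passed after adjustment. Members of the lists were chosen for their known roles, with earlier results of these data known, and the counts are a description of them.

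No gene of the sorting complexes that build the organelle passed. BLOC-1 gave 0 calls among 8 tested subunits with a median log2 fold change of -0.13, and its member Dtnbp1 (dysbindin) was at 34.7 ± 1.70 CPM in NM1 KO against 40.7 ± 1.71 CPM in NM1 WT (SD, n = 3, edgeR adjusted p = 0.422). The remaining subunits of BLOC-2 and BLOC-3 gave 0 of 3, with Hps3 at a log2 fold change of -0.29 with SE 0.15 (adjusted p = 0.358). AP-3 with its lipid kinase gave 0 of 6, in a range from -0.17 to 0.02. The tethering complexes gave 0 of 10, in a range from -0.20 to 0.13.

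Proteins of the granule membrane gave 0 calls among 8 tested genes. Slc17a9, the vesicular nucleotide transporter that loads ATP, was at 44.2, 28.8 and 29.8 CPM in NM1 KO and at 62.6, 57.4 and 51.5 CPM in NM1 WT. All NM1 KO libraries were lower, with a log2 fold change of -0.74 (SE 0.18) and an edgeR adjusted p of 0.0848. Its direction was thus the opposite of that of Slc6a4 and Rab27b. Among 17 subunits of the proton pump that acidifies the granule 0 passed, 6 were lower in every NM1 KO library (9.75% of all tested genes were), and Atp6v0b had the smallest p (log2 fold change -0.48, SE 0.15, adjusted p = 0.148).

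Genes of release came closest to the threshold. Sytl4, which encodes granuphilin, a partner of Rab27, was at 11.1, 21.1 and 10.97 CPM in NM1 KO and at 4.34, 6.20 and 5.38 CPM in NM1 WT. As for Rab27b, the groups were apart and NM1 KO 2 was highest, and the log2 fold change was 1.44 (SE 0.30) with an edgeR adjusted p of 0.0516. Vamp2, a vesicle SNARE, pointed the other way, at 52.4 ± 4.67 and 78.7 ± 11.3 CPM (SD, n = 3) with a log2 fold change of -0.59 (SE 0.14) and adjusted p = 0.0848. In all, 0 of 18 tested exocytosis genes passed, with a median of -0.05.

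Regulators of the Rab cycle gave 0 of 12, and the smallest p belonged to Rabggta, a subunit of the enzyme that attaches the lipid anchor to Rab proteins (log2 fold change -0.47, adjusted p = 0.208 in the edgeR fit). BEACH-domain relatives of Lyst gave 0 of 8. All NM1 KO libraries lay above in 4 of them and below in 1, Nbeal2, beside 10.8% and 9.75% of all tested genes. The smallest p values belonged to Lrba, at a log2 fold change of 0.45 (SE 0.17 and adjusted p = 0.206), and Nbea, at 0.55 (SE 0.31, adjusted p = 0.402). Transcription factors of megakaryocytes gave 0 of 10. Tal1 was at 232 ± 30.1 CPM in NM1 KO against 151 ± 29.9 CPM in NM1 WT (SD, n = 3), with a log2 fold change of 0.62 and adjusted p = 0.0977, and Gfi1b at 0.48 with adjusted p = 0.180. Pigment cells, which share much of this machinery, left little trace, since Tyr, Tyrp1 and Dct were at 0 in all libraries and the 6 listed markers summed to 5.90 to 8.70 CPM.

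**Figure D4:**
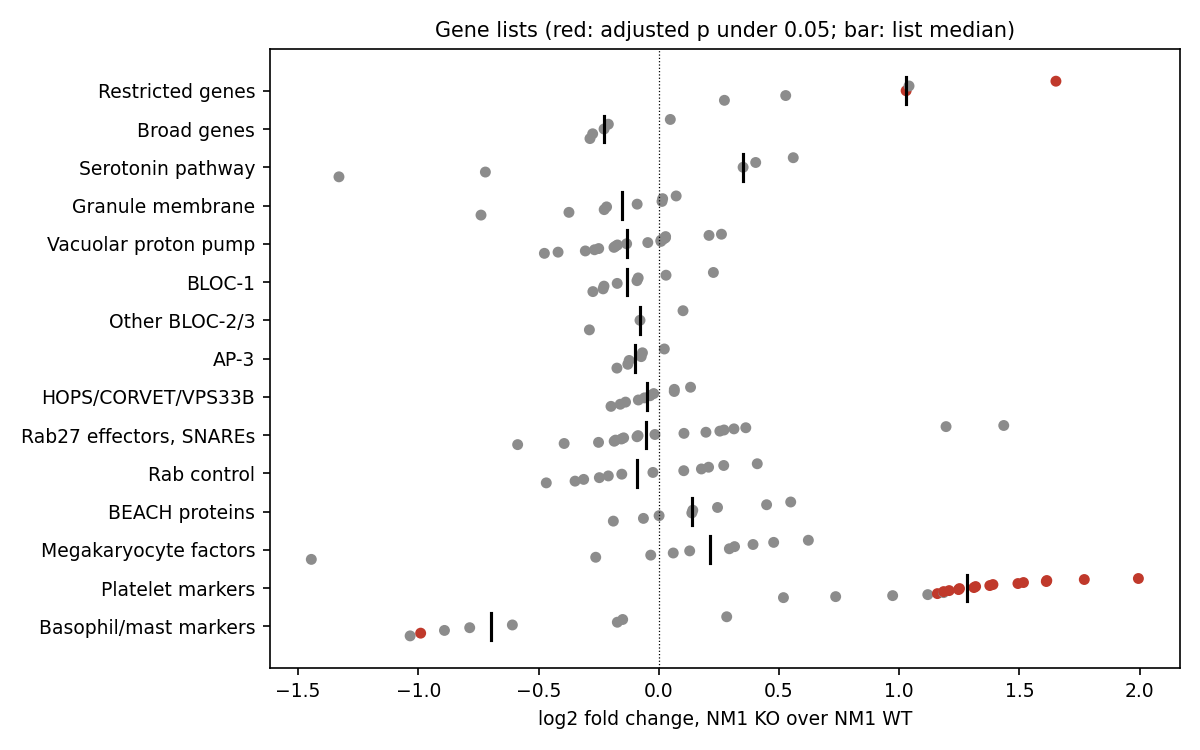
Log2 fold change of NM1 KO over NM1 WT for every tested gene of the lists, 1 point per gene and 1 row per list, with the median as a bar and called genes in red. The restricted genes (median 1.03) and the platelet markers (median 1.28) lie to the right of 0. The sorting, tethering and proton pump lists lie on both sides of 0, with medians a little below it (-0.13 to -0.05).

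Slc6a4 lies on the same chromosome as Myo1c, with 1348 kilobases between their starts. Of 56 tested genes within 2 megabases of Myo1c, Slc6a4 was the 1 that rose, and 2 fell, beside 0.591% and 0.186% of all tested genes. These were Ccdc92b, by 3.37 (log2, SE 0.23, adjusted p = 5.85e-05 by edgeR), from 30.04 ± 7.22 to 2.89 ± 0.29 CPM (SD, n = 3), and Gm26836, by 3.59 (SE 0.55, adjusted p = 0.0204), from 6.64 ± 2.97 to 0.546 ± 0.334 CPM. In this window 7 genes had all NM1 KO libraries above and 9 all below, beside 10.8% and 9.75% of all tested genes, and the median log2 fold change was -0.12. The part of the Myo1c neighbourhood in the Slc6a4 difference was not tested. The other 9 genes lie on other chromosomes.

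**Figure D5:**
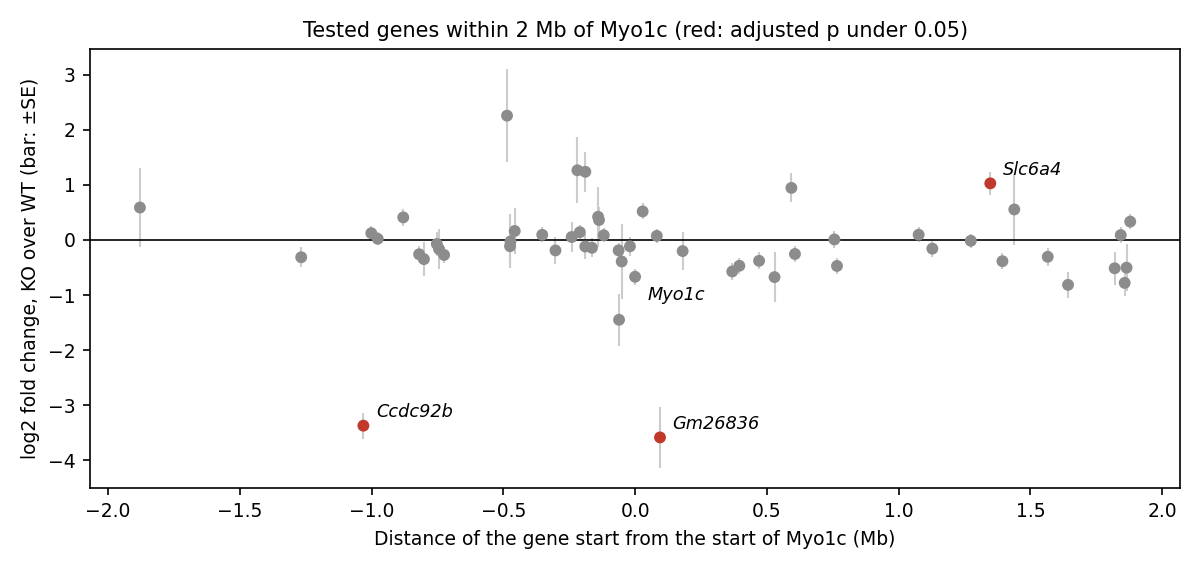
Log2 fold change of NM1 KO over NM1 WT for the 56 tested genes within 2 megabases of Myo1c, by distance of their starts from that of Myo1c in megabases, with bars of 1 SE and called genes in red. Slc6a4, 1348 kilobases away, is the called gene above 0, and Ccdc92b and Gm26836 are the called genes below 0.

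Annotated genes that overlap 6 of the 10 genes held at most 6 counts in a library, and the pseudogene AC163398.1 inside Rab27b was not analysed here. How many reads were ambiguous between them was not tested. Runs of 50 bases shared with another gene made up 4.46% of the longest Rab27a transcript, 1.43% of that of Slc18a2, 0.38% of that of Rab27b and 0.0966% of that of Hps1, and 0% for the other 6 genes. Neither Rab27a nor Rab27b was among the genes sharing most such runs with the other, but genes sharing fewer runs were not listed.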

How the data were processed

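The authors deposited raw read counts per Ensembl gene for 6 libraries, with no normalisation. Per the submitters' processing notes, HISAT2 2.0.4 and HTSeq were used with Trimmomatic 0.36, FastQC and SAMtools 0.1.19, on GRCm38 (mm10). Strand setting, annotation release and HTSeq options are not given in the sources consulted, so antisense reads cannot be told apart. Low counts were nearly all even (98.7% to 98.9% of counts up to 20), as when both mates of a pair are counted. Of 46603 identifiers 46005 matched a GENCODE M21 symbol and position, and the others held at most 0.0827% of a library.

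Genotypes were compared with edgeR 4.0.16 (R 4.3.3): filterByExpr, TMM, quasi-likelihood test, Benjamini-Hochberg over 15069 genes, threshold 0.05. Alternatives used limma 3.58.1 (voom), DESeq2 1.42.0, other scalings and filters, a replicate block, the Y-linked state as a term, counts divided by 2, and left-out libraries or genes near Myo1c. The pipeline was tested on simulated data. Each library is a separate mouse. Exact permutation tests were two-sided.

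The 10 genes and all lists were chosen with earlier results of these data known. Named genes were all 10, Myo1c, called genes within 2 megabases of it, for each pathway list up to 4 called genes or the 2 of smallest p, and for marker lists the most abundant or undetected genes. Others named were chosen after their values were seen, among them Tph1 and Prss34. Promoters came from RefSeq (GRCm38.p6). Deviations of same-numbered libraries correlated at 0.06, 0.12 and 0.06. Not all were over 0.1 and the labels name no pairing, so the replicate block was kept as an alternative.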

Additional observations from a re-analysis of the deposited data

How the results depend on the processing

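The count of genes called moved most. It was 117 as reported, 1138 with no low-count filter, 794 in DESeq2, 541 in the likelihood ratio test, 421 with a replicate block, 60 with the Y-linked state as a term and 37 in limma-voom. Leaving out 1 library gave from 26 (NM1 WT 1 left out) to 344 (NM1 WT 2), by way of 30 (NM1 WT 3), 40 (NM1 KO 2) and 177 (NM1 KO 3). The share of calls that were higher in NM1 KO was 76.1% as reported, but 54.6%, 50.4%, 55.1% and 54.4% with no filter, DESeq2, the likelihood ratio test and the block, and 40.1% without NM1 WT 2.

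Of the 10 genes, the number that rose was 1 under RLE or upper-quartile scaling, 1 with the Y-linked state as a term, 1 with genes within 20 megabases of Myo1c left out (Slc6a4 then has no value), 0 in limma-voom and 0 to 2 with a library left out. Slc6a4 was called in 9 of 17 alternatives (adjusted p 2.38e-07 to 0.216; RLE 0.0502, upper-quartile 0.0528, Y-linked state 0.0821, limma-voom 0.0854). Rab27b was called in 15 of 18 (adjusted p 2.24e-17 to 0.127; limma-voom 0.0677). Slc35d3 was called only without the filter (0.00639). With 1 library left out, Lyst ranged from -0.19 to 0.44 (log2): it changed sign for NM1 WT 3 (-0.19), NM1 KO 3 (-0.07) and NM1 WT 1 (-0.04), and was 0.44 for NM1 WT 2. Slc35d3 relative to the platelet markers ranged from -0.59 (NM1 WT 2 left out) to 0.022 (NM1 WT 3 left out). The cause of these moves was not tested. The other 9 genes kept the sign of their fold change in the alternatives run. With the replicate block both calls held (edgeR adjusted p 0.0131 for Slc6a4 and 0.00424 for Rab27b). In deviations from the group means each NM1 KO library correlated best with the NM1 WT library of its number. That is a weak hint from the data and not from the design. In whole profiles it did not hold, since among NM1 WT libraries NM1 KO 1 (0.969) and NM1 KO 3 (0.962) correlated best with NM1 WT 2. The lowest counts of Rab38, Slc35d3 and Hps6 in a library were 68, 68 and 84.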
